A study of Mus musculus with 2 samples.

Results

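Integrins are cell surface receptors made of 1 alpha and 1 beta chain, and they hold cells to the matrix around them. In blood and lymph vessels the matrix under the endothelium is the basement membrane, a sheet in which laminins (trimers of an alpha, a beta and a gamma chain) and type IV collagen are joined by nidogens and by the heparan sulfate proteoglycans perlecan and agrin. Which alpha chain pairs with which beta chain sets the ligand: collagen, laminin, proteins with the RGD tripeptide such as fibronectin and vitronectin, or counter-receptors on other cells.

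The genes described here were taken by symbol, with earlier results of these data known. They are every integrin alpha and beta chain, laminin chain, nidogen, perlecan (Hspg2) and agrin (Agrn) gene with its own probe set on the array. They came to 38 genes with 81 probe sets, of 18193 named genes and 45037 probe sets. Of the 38 genes, 24 encode integrin chains, 10 laminin chains and 4 the nidogens, perlecan and agrin. RNA came from vascular cells flow-sorted out of the right lung lobes of C57BL/6J mice whose left lobe had been resected. The 2 groups were old mice and young mice, both operated, with 1 array of each. Exact ages, the interval since surgery, the sorting markers and how many animals were pooled are not stated in the labels. Both groups were operated, so no value here separates an effect of surgery. With 1 array per group there is no replicate check of any difference and no test, and genes are described by a size rule of 2-fold.

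Signals are MAS5 intensities after scaling, and the floor below which values were not ordered was 73.7. Ratios are log2, old minus young. Where just 1 array exceeded the floor, the fold was taken against the floor and is written "at least". The only repeated measurement was the spread between probe sets of 1 gene, which says nothing of the mice. Its standard deviation in log2 ratio was 0.42 over 4514 genes, and 0.52 over 11 genes of the set described here. Probe sets under the floor on either array were left out of it. Markers of several cell types differed between the arrays. All 13 pan-endothelial markers were above the floor on both, with summed signals 1.82-fold higher on the old array. For the other marker lists many values were under the floor, so folds of summed signals are bounds, in which such a value counts as 0 on the higher array and as the floor on the lower. Toward the old array the bounds were at least 41.3-fold for 12 macrophage markers, 30.1-fold for 10 fibroblast, 20.1-fold for 8 hepatocyte, 11.3-fold for 10 liver sinusoidal endothelial, 8.86-fold for 11 pericyte and smooth muscle, 6.90-fold for 8 mesothelial and 5.67-fold for 10 leukocyte markers. The pericyte and smooth muscle bound was 3.93-fold without Acta2. Without their largest gene the bounds were 21.2-fold for macrophage (Mrc1), 20.8-fold for fibroblast (Col3a1) and 10.8-fold for hepatocyte markers (Alb). They were 9.52-fold for liver sinusoidal endothelial (Clec4g), 5.49-fold for mesothelial (Upk1b) and 3.09-fold for leukocyte markers (Srgn). The bound for 7 platelet markers was 16.5-fold toward the old array, where Clec1b made up 90.6% of the sum, and 1.54-fold without Clec1b. All 9 T cell and natural killer markers were under the floor on the young array and 4 of them on both, with a bound of 2.11-fold that was lost without Gzma. The 10 epithelial markers had a bound of 1.16-fold, which was lost without Hopx. Summed signals of 8 lymphatic markers were at least 1.75-fold higher on the young array. The lung epithelial markers Sftpc, Nkx2-1, Scgb1a1 and Foxj1 were below the floor on both. In bulk RNA, fewer cells of a type and less RNA per cell cannot be told apart. The labels name lung, yet markers of liver sinusoidal endothelium and of hepatocytes were high on the old array. Clec4g was at 41144 against 792, and Alb at 8900 against a young value under the floor. No marker of either list was 2-fold or more toward the young array. With 1 array per group, age cannot be told apart from a difference in the tissue or cells collected.

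Of the 38 genes, 23 were above the floor on both arrays, 9 on the old array only, 0 on the young only, and 6 on neither. Over all 18193 named genes, 1446 were above it on the old array only, 655 on the young only and 6088 on neither. Among the 23, the old array was higher by at least 2-fold for 8 and the young array for 5, beside 11.7% and 10.6% of 10004 genes of the whole array. Their median log2 ratio was 0.45, against -0.02 over those 10004 genes, and the standard deviation of their ratios was 2.10 against 1.13. With bounds against the floor included, 14 of 32 lay toward the old array and 5 toward the young, beside 16% and 11.3% of 12105 genes. A gene that passed on the old array alone could differ in that direction only, so these larger counts carry no weight of their own. Counts differed with the floor: at the 75th percentile of signals only 5 genes were on the old side and again 5 on the young.

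**Figure D1:**
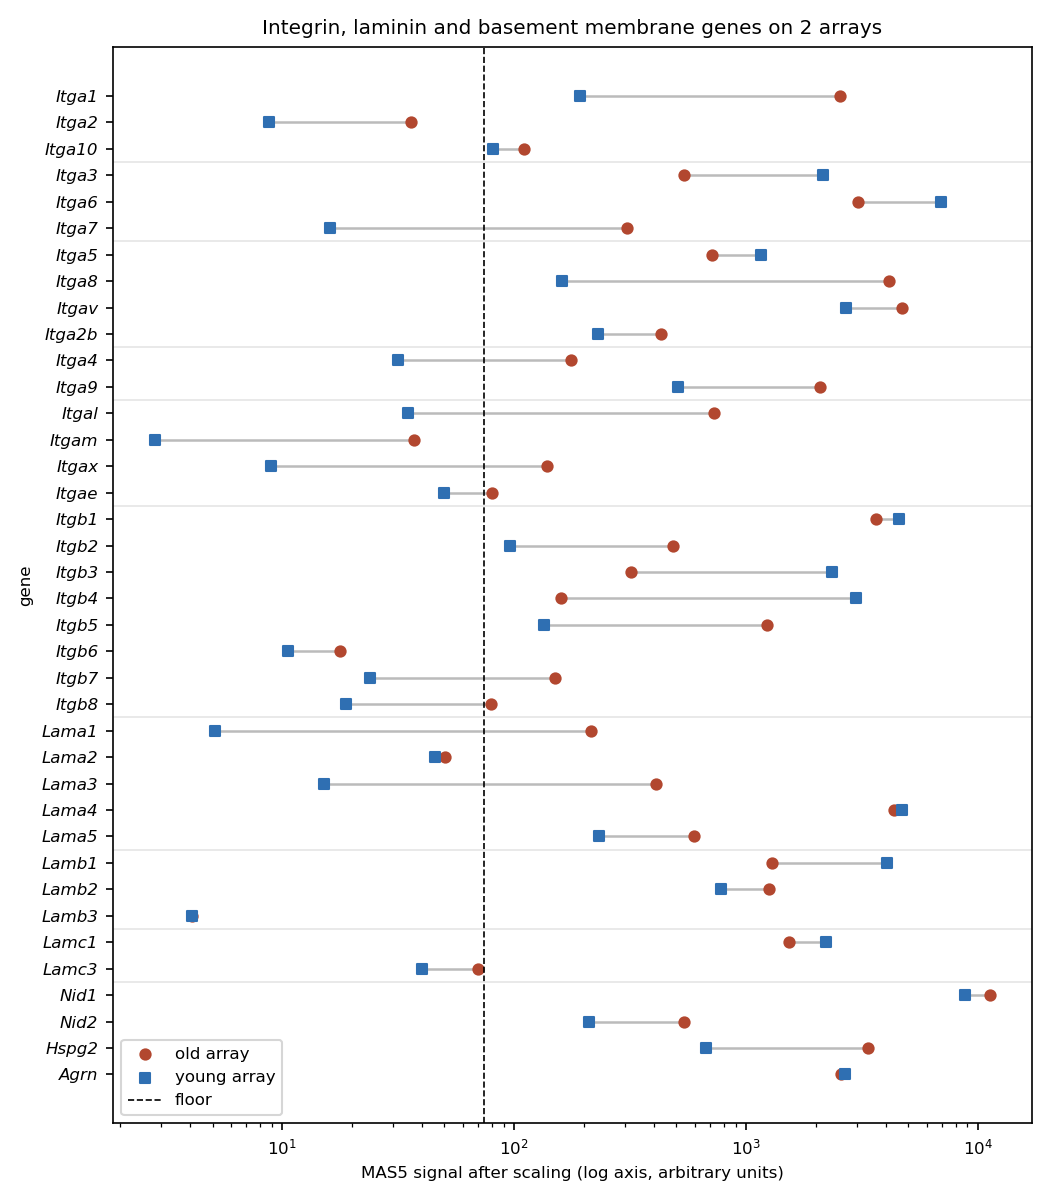
Scaled MAS5 signal (log axis) of each of the 38 genes on the old array (circles) and the young array (squares), ordered by class, with the floor of 73.7 as a dashed line. Itga8 (4129 against 161) and Itgb4 (160 against 2974) lie at opposite ends of the set; positions of different genes reflect different probes and are not comparable.

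Of the alpha chains listed here as laminin-binding, Itga6 and Itga3 lay on the young side and Itga7 on the old side. Itgb4, a beta chain described beside them, lay on the young side. Over all genes measured, 16% were on the old side and 11.3% on the young. Itgb4, which pairs with the alpha 6 chain alone and anchors cells to laminin, had the largest ratio toward the young array of all 38 genes. Its signal was 160 on the old array and 2974 on the young, an 18.6-fold difference from 1 probe set. Itga6, its partner, had 3043 on the old array and 6904 on the young, 2.27-fold, and its second probe set gave 3.75-fold in the same direction. Itga3, a laminin receptor chain that pairs with beta 1, had 539 and 2144, a 3.98-fold difference. The other probe sets of Itga3 were below the floor on the old array, with at least 7.60-fold and at least 2.98-fold in the same direction. The remaining alpha chain of that list, Itga7, known best from muscle, went the other way. Itga7 had 306 on the old array and a young value under the floor, a bound of 4.16-fold. Of 11 pericyte and smooth muscle markers 8 were on the same side as Itga7 and 1 on the other (summed signal 27638 and 3121, with values under the floor raised to it here and in the sums that follow), among them Acta2 with 15847 against 118, and their part in its ratio was not tested. Of 8 lymphatic markers 5 were on the same side as Itgb4, Itga6 and Itga3, among them Prox1 (under the floor on the old array, 6885 on the young), and their part was likewise not tested. The 1 lymphatic marker on the old side was Itga9, a gene of this family.

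Of the collagen-binding alpha chains, Itga1 was past 2-fold toward the old array and Itga10 was within 2-fold. Itga1, a receptor for type IV collagen, was at 2533 on the old array and 193 on the young, 13.1-fold. Its second probe set, below the floor on the young array, gave at least 3.28-fold. Itga10 had 110 and 80.9, a 1.36-fold difference close to the floor. Itga2 lies next to Itga1 on the chromosome with 0 coding genes between them and was below the floor on both arrays. Itga1 alone of these neighbours was therefore measurable. No probe set here carries the name Itga11.

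The RGD-binding alpha chains had 1 member with a large ratio and 3 within 2-fold. Itga8, whose product pairs with beta 1 and binds nephronectin and is known from mesenchymal and smooth muscle cells, was at 4129 on the old array and 161 on the young. That is 25.7-fold, the largest ratio of the 38 genes, and its second probe set (272 on the old array, below the floor on the young) gave at least 3.69-fold. Npnt, the gene of its ligand nephronectin, was on the opposite side, with 139 on the old array and 585 on the young, 4.21-fold. Itgav, the shared partner of 5 beta chains, had 4683 and 2684, a 1.74-fold difference toward the old array, and Itga2b, the platelet chain, 431 and 231, 1.87-fold. Of 7 platelet markers, Itga2b among them, 3 were on the old side and 1 on the young. Itga5, the fibronectin receptor chain, had 712 on the old array and 1157 on the young for the probe set used. Its 4 measured probe sets did not share a sign, from -0.70 to 1.48 in log2 ratio, so no direction is given for Itga5. Of 10 fibroblast markers 7 were on the same side as Itga8 and Itga1 and 0 on the other (summed signal 23214 and 766), with Col3a1 at 8671 on the old array, and Pdgfra and Tcf21 under the floor on both. Of 10 liver sinusoidal endothelial markers 9 were also on that side. The part of either list was not tested.

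The alpha 4 and alpha 9 chains, which bind VCAM-1 and other ligands, were both on the old side. Itga9, known from lymphatic valves and as a tenascin-C receptor, had 2078 on the old array and 507 on the young, 4.10-fold. Its other probe sets gave 2.87-fold and 4.85-fold. Itga9 thus lay opposite to Prox1, Mmrn1 and Nts, the lymphatic markers with the largest ratios, and also opposite to Tnc, the tenascin-C gene (244 on the old array and 4574 on the young, 18.8-fold). Itga4 had 176 on the old array against a young value under the floor, at least 2.39-fold, with its other 4 probe sets below the floor on both. Vcam1, a ligand of both, had 2041 on the old array, a bound of 27.7-fold.

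**Figure D2:**
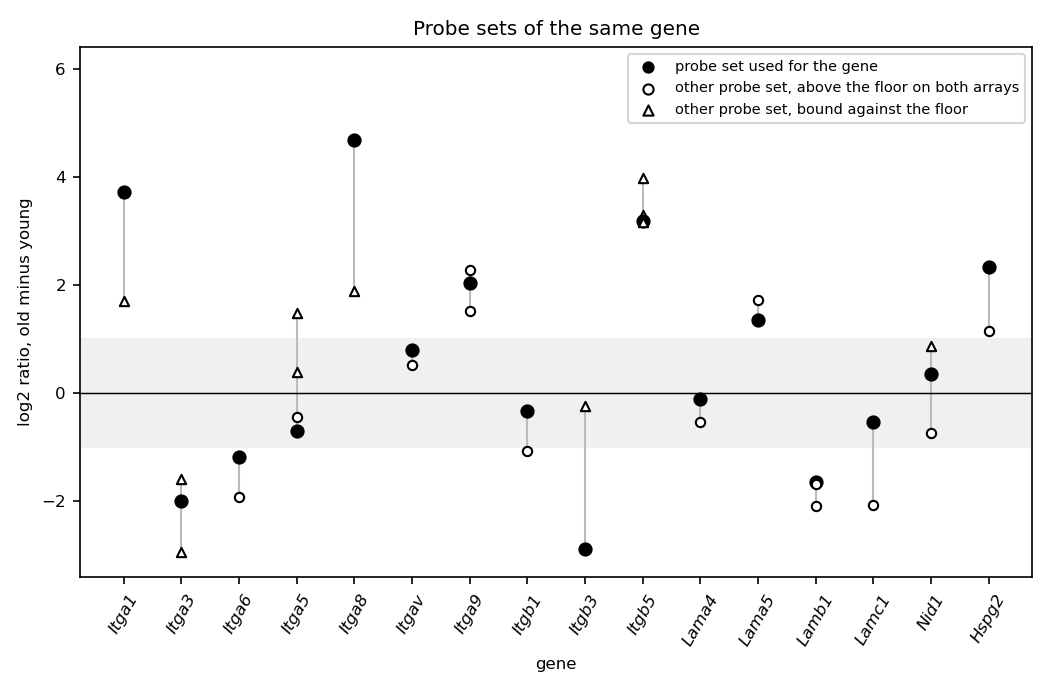
Log2 ratio (old minus young) of every probe set above the floor on at least 1 array, for the 16 genes with 2 or more of them; filled points are the probe sets used, triangles are bounds and the grey band is within 2-fold. For 14 of the 16 genes all probe sets share a sign, and Itga5 and Nid1 are the exceptions.

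Leukocyte integrin chains were above the floor mostly on the old array alone, with Itgb2 as the exception. Itgal, the alpha chain of LFA-1, had 730 on the old array and 34.8, under the floor, on the young, at least 9.90-fold. The other probe set of Itgal was under the floor on both arrays. Itgb2, the beta chain of LFA-1, had 485 and 95.6, 5.08-fold, and was the only leukocyte chain above the floor on both arrays. Itgb7, a partner of alpha 4 and alpha E, had 149 on the old array, at least 2.03-fold. Itgax (138 on the old array, at least 1.88-fold) and Itgae (80.3, at least 1.09-fold) did not reach 2-fold against the floor. Itgam was below the floor on both arrays, next to Itgax with 0 coding genes between them, and Itgad has no probe set of that name here. Of 10 leukocyte markers 8 were on the old side and 0 on the young, with Fcer1g at 4593 on the old array and under the floor on the other. Their summed signal was 44772 on the old array and 7903 on the young, and their part in the integrin ratios was not tested.

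Beta chains lay on either side, from Itgb5 on the old to Itgb4 on the young. Itgb1, the partner of most alpha chains, had 3622 on the old array and 4566 on the young, 1.26-fold, and its 3 measured probe sets ran from -1.08 to -0.33 in log2 ratio. Itgb5, which pairs with alpha V as a vitronectin receptor, had 1227 and 135, 9.12-fold higher on the old array. The 3 other probe sets of Itgb5 were below the floor on the young array and gave at least 9.01-fold to at least 15.8-fold, so this ratio did not rest on 1 probe set. Itgb3, which pairs with alpha V or the platelet chain alpha IIb, had 318 and 2333, 7.33-fold higher on the young array. Its second probe set reached 86.3 on the young array against an old value under the floor, which bounds its fold at 1.17 only. Itgb8 was barely above the floor on the old array (79.0) and below it on the young. Itgb6, the epithelial partner of alpha V, was below the floor on both.

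Set pair by pair, 12 of 22 known integrin pairs had both chains above the floor on both arrays, 7 on the old array only, 0 on the young only and 3 on neither. The 7 were pairs with Itga4, Itga7, Itgal, Itgax, Itgae or Itgb8. No gene of the set was above the floor on the young array alone, so no pair could be complete there only. The pair counts therefore carry no weight beyond the counts of genes. Within the 12, a chain's ratio could differ widely from that of its partner. In the alpha V receptors, Itgav had a log2 ratio of 0.80, Itgb5 3.19 and Itgb3 -2.87. Itga8 and Itga1 exceeded Itgb1 by 5.02 and 4.05 in log2 ratio, while Itga3 lay below it (-1.99 against -0.33). Itgb4 lay further toward the young array (-4.22) than Itga6 (-1.18). Presence of both transcripts in a mixed sample does not show that 1 cell made both chains.

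**Figure D3:**
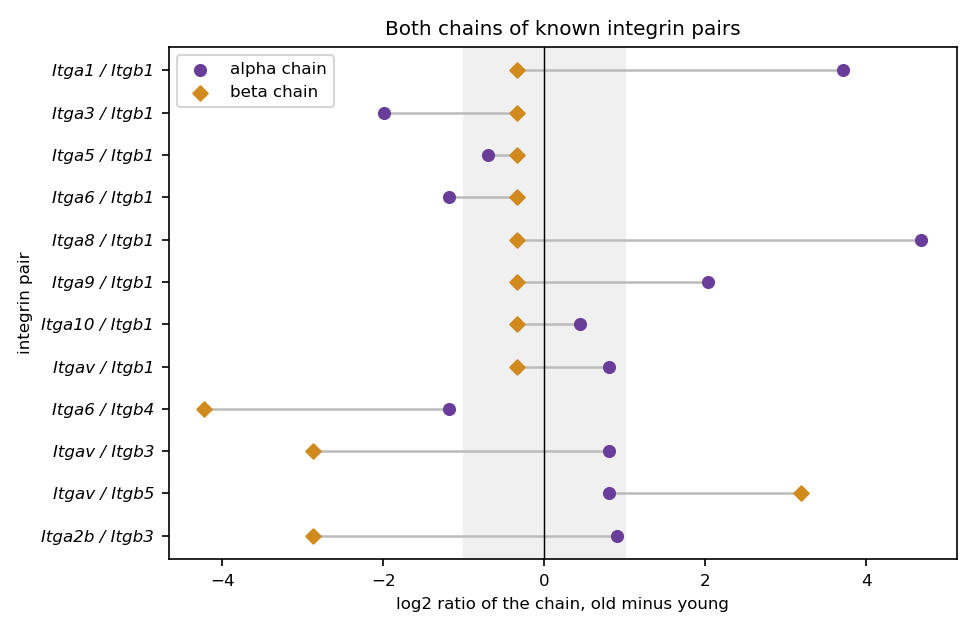
Log2 ratio (old minus young) of the alpha chain (circles) and the beta chain (diamonds) of the 12 integrin pairs above the floor for both chains on both arrays; the grey band is within 2-fold. Itgb1 stays at -0.33 in its pairs while its alpha partners run from -1.99 for Itga3 to 4.68 for Itga8, and Itgb3 and Itgb5 lie on opposite sides of their partner Itgav.

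Among the laminin chains of vessel basement membranes, Lama5 was past 2-fold toward the old array and Lamb1 toward the young, and Lama4, Lamb2 and Lamc1 were within 2-fold. Lama4, the alpha chain typical of endothelium, had 4322 on the old array and 4678 on the young, 1.08-fold. Lama5, the other alpha chain of vessel walls, had 593 and 232, 2.55-fold higher on the old array, with 3.31-fold from its second measured probe set. Lamb1, a beta chain that joins either of them in trimers, had 1296 and 4053, 3.13-fold higher on the young array, and its other measured probe sets gave 3.18-fold and 4.26-fold. Lamb2, the alternative beta chain, had 1249 and 777, a 1.61-fold difference toward the old array. Lamc1, the gamma chain common to these trimers, had 1525 and 2214, a 1.45-fold difference toward the young array, but 4.16-fold from its second probe set (131 against 546).

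Other laminin alpha chains appeared on the old array alone. Lama3, a chain of epithelial anchoring laminin, had 409 there and a young value under the floor, at least 5.55-fold. Its other probe set was under the floor on both arrays. Lama1, found mainly in embryonic and some epithelial basement membranes, had 213 on the old array, at least 2.89-fold. Lama2, Lamb3 and Lamc3 stayed under the floor on both arrays, so Lamb3, the usual beta partner of Lama3, gave no value above the floor. Of 8 mesothelial markers 7 were on the old side and 0 on the young, with Upk3b at 3667 on the old array (summed signal 16504 and 2393). Of 10 epithelial markers 2 were on the old side and 1 on the young, with 4 under the floor on both. The part of either list in the Lama3 and Lama1 values was not tested. Of 10 laminin trimers written down from textbook knowledge, 4 had all 3 chains above the floor on both arrays (Lama4 or Lama5 with Lamb1 or Lamb2 and Lamc1), 4 on the old array only and 0 on the young only. Those on the old array only were the trimers with Lama1 or Lama3. With no chain above the floor on the young array alone, no trimer could be complete there only.

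The linker and proteoglycan genes were above the floor on both arrays. Hspg2, which encodes perlecan, had 3363 on the old array and 670 on the young, 5.02-fold, and 2.23-fold from the other probe set. Nid2, nidogen 2, had 539 and 210, 2.57-fold higher on the old array. Nid1, nidogen 1, had 11278 and 8810, a 1.28-fold difference, and its 3 probe sets ran from -0.74 to 0.88 in log2 ratio, so no direction is given for Nid1. Agrn, which encodes agrin, had 2558 and 2660, a 1.04-fold difference. Hspg2 and Nid2 were thus the members of this class past 2-fold, in the same direction as Lama5 and opposite to Lamb1.

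Upstream sequence is shown for genes past 2-fold, the 2 of largest ratio on each side that have an entry in the RefSeq promoter table (build GRCm38.p6), as the 250 bases before the annotated start. Itga8 (chr2:12301945-12302194, minus strand) and Itga1 (chr13:115101965-115102214, minus strand) were on the old side. Itga3 (the first of its listed starts, chr11:95076715-95076964, minus strand) and Lamb1 (chr12:31265043-31265292, plus strand) were on the young side. Capitals mark matches on either strand to 4 motifs, the GC box GGGCGG, the AP-1 element TGANTCA, the EGR1 element GCGNGGGCG and the CArG box.
Itga8: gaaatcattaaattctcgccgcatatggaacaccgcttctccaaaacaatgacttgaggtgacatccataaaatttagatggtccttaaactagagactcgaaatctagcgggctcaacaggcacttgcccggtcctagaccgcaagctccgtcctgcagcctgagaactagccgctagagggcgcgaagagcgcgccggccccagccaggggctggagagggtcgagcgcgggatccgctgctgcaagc
Itga1: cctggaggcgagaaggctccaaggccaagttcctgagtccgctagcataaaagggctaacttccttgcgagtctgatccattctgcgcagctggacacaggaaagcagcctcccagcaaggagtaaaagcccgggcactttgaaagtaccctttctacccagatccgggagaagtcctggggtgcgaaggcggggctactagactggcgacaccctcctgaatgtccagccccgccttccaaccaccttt
Itga3: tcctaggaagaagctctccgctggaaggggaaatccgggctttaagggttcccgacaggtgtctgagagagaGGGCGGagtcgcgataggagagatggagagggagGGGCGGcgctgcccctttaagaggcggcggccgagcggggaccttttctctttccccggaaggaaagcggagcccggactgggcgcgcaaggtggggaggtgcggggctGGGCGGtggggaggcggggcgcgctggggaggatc
Lamb1: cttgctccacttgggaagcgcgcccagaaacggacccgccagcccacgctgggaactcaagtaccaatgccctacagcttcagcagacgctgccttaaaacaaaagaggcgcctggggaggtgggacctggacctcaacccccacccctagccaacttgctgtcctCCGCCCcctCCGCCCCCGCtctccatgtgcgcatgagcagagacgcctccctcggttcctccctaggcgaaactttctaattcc

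The Itga3 window holds 3 GC boxes and the Lamb1 window 2, of which 1 overlaps an EGR1 element, while the windows of Itga8 and Itga1 hold no match to any of the 4. Among the genes past 2-fold with an entry, 4 of 8 on the old side and 2 of 2 on the young had a GC box. A gene counts here if the window of any of its listed starts holds a GC box, so these are not counts of windows. By window, 13 of 29 of the members' (44.8%) hold one. Of the same 29 windows 1 (3.45%) holds an AP-1 element, 2 (6.90%) an EGR1 element and 2 (6.90%) a CArG box. Among 32851 windows of all genes 32.7% hold a GC box, 6.75% an AP-1 element, 4.70% an EGR1 element and 1.47% a CArG box. The match is a description of letters and not of binding.

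Genes that work with these chains were taken from lists of known partners. Of 25 measured integrin activators and adaptors, 5 were on the old side, 4 on the young and 16 within 2-fold. Over all genes measured, 16% were on the old side and 11.3% on the young. The 22 activators and adaptors above the floor on both arrays had a median log2 ratio of 0.39 (-0.02 over all genes). Fermt3, the kindlin of blood cells, had 1203 on the old array with a young value under the floor, at least 16.3-fold, on the same side as Itgal and Itgb2. Lims2 and Lims1, the PINCH adaptors of the integrin-linked kinase, lay on opposite sides, with a bound of 15.1-fold toward the old for Lims2 (1109) and Lims1 3.65-fold higher on the young array (2270 against 8285). Tns3, a tensin that binds beta chain tails, had 12971 and 1042, 12.4-fold. Of 8 focal adhesion kinases and their adaptors 1 was on each side and 6 within 2-fold, with Fyn 3.68-fold higher on the old (5971 against 1620) and Ptk2b 2.40-fold on the young array (269 against 646). All were above the floor on both arrays, where 11.7% of all genes were on the old side and 10.6% on the young.

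Other basement membrane genes were also divided. Of 17 measured, 7 were on the old side and 5 on the young, and for the 12 above the floor on both arrays these counts were 3 and 5, with a median log2 ratio of 0.16. Over all genes the shares were 16% and 11.3% of those measured, and 11.7% and 10.6% of those above the floor on both arrays. Col18a1, the source of endostatin, had 424 and 6616, 15.6-fold higher on the young array, and Fbln2, fibulin 2, had 2206 and 11992, 5.44-fold. Smoc2 had 384 on the old array, at least 5.22-fold. Of 4 further laminin receptors, Mcam had 3251 and 333, 9.77-fold higher on the old array, while Rpsa, Dag1 and Bcam were within 2-fold.

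**Figure D4:**
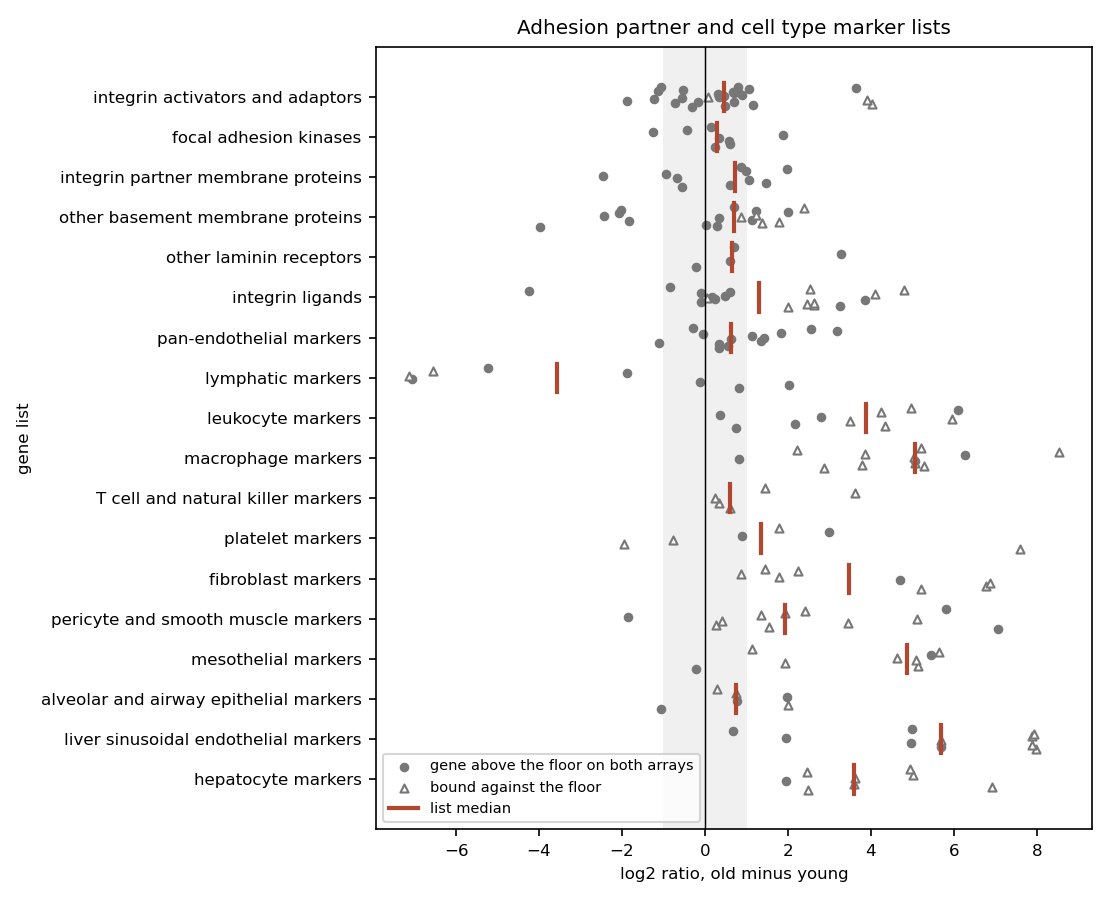
Log2 ratio (old minus young) of each gene of 6 lists of adhesion partners and 12 lists of cell type markers; filled points are above the floor on both arrays, triangles are bounds against the floor, red bars are medians over both kinds and the grey band is within 2-fold. Partner list medians lie between 0.29 for focal adhesion kinases and 1.30 for ligands. The median of liver sinusoidal endothelial markers lies furthest toward the old array. Those of macrophage (5.06), mesothelial, leukocyte, hepatocyte (3.60) and fibroblast (3.47) markers follow in that order. That of lymphatic markers (-3.56) lies toward the young array.

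Of the 19 genes past 2-fold, 15 stayed past it under each of 11 processing alternatives that gave a value, and none of the 19 changed direction. Itgal (0.58), Lama5 (0.28) and Nid2 (0.14) fell under 2-fold with the floor at the 75th percentile, and Itgb7 (0.99) with loess. Itgb2, Itga4, Itga7, Itgb7, Lama1 and Lama3 had no value with the 75th percentile floor, being below it on both arrays.

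**Figure D5:**
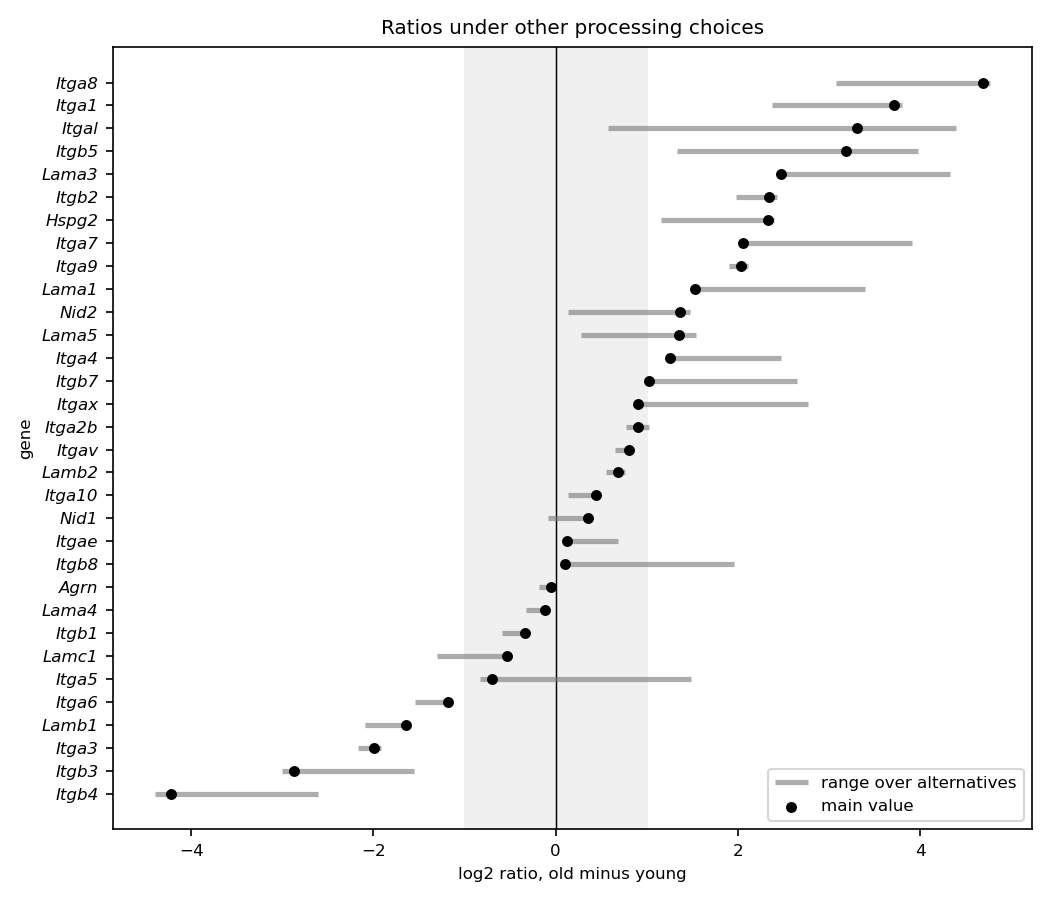
Log2 ratio (old minus young) of the 32 genes above the floor on at least 1 array, as the main value (points) and as the range over up to 11 alternatives (bars); the grey band is within 2-fold. Itga8, Itga1, Itgb5, Itga9, Hspg2, Itgb4, Itgb3, Itga3, Itga6 and Lamb1 stay outside the band under all 11. Itgb2, Itga7, Itga4, Lama1 and Lama3 do so under the 10 that gave a value. Itga5 runs from -0.83 to 1.48.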

How the data were processed

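Both arrays were one-colour Affymetrix expression arrays, and the deposited table gives a linear MAS5 intensity for each probe set. Per the submitters' processing notes GCOS 1.4 and MAS5 were used. Trimmed by 2% at each end, the deposited intensity averaged 500.003 on either array. Samples were grouped by the labelled age.

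Of 45101 probe sets 64 controls were left out. Probe sets were named through the array's platform annotation, in which 34958 probe sets had 1 symbol, and all 38 member symbols matched current RefSeq names by Entrez identifier. Signals were multiplied by 1.05 (old) and 0.956 (young), which removed a median log2 ratio of -0.13 over probe sets above each array's median; a common floor was tried first. The floor was the higher of the arrays' medians. Each gene was represented by its probe set of highest mean log2 signal. Depth has no meaning for arrays; their number limits the precision.

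The members and lists were chosen with earlier results of these data known. Named were all members, up to 4 genes of each partner list and 3 of each marker list by size of ratio, and pathway genes discussed beside them. The integrin pairs, laminin trimers, promoter windows and motifs were chosen after the values were seen. Protein sequences were planned but not used here. The calculation was tested on simulated data. Python 3.11.15, numpy 2.4.6, pandas 2.3.3, statsmodels 0.14.6 and matplotlib 3.10.9 were used.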

Additional observations from a re-analysis of the deposited data

How the results depend on the processing

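Each of 9 alternatives changed 1 choice: scaling (none, trimmed means made equal, quantile normalization or loess with a span of 0.4), the floor (25th or 75th percentile, or 0.5 of it added before log2) or the probe sets (their mean, or without the _s_at and _x_at kinds). With the 75th percentile floor the genes on the old side numbered 5 in place of 14. The median log2 ratio over members above that floor on both arrays was -0.11 in place of 0.45. That median is over fewer members, as those with either array under the floor are left out. Among those left out were Itga8, Itga1 and Itgb5, under it on the young array, and Itgb4 and Itgb3, under it on the old. Under the other 8 alternatives the median was 0.13 to 0.69, the old side held 14 to 16 genes and the young side 5 or 6. Taking the scaling, or the loess, over probe sets above 1 common floor was tried first and is counted as 2 more alternatives chosen after seeing the data; it gave 14 (loess 15) genes on the old side, 5 on the young and medians of 0.46 (loess 0.34). Itgb7, at 0.99 with loess over each array's own median, was just past 2-fold with loess over the common floor. Of 13 members within 2-fold, 5 passed it under at least 1 of the 11 (Itga2b, Itga5, Itgax, Itgb8 and Lamc1), and Itga5 and Nid1 changed sign; the cause was not tested. The median over all genes moved from -0.02 to -0.14 on the values as deposited. No paired analysis was possible because each group has 1 array. The limit on every value is that number, and low signals rest on the floor.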

Other observations

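Integrin ligands and membrane partners of integrins, lists written from textbook knowledge, also had members on either side. Of 18 measured ligands 9 lay at least 2-fold toward the old array and 1 toward the young, but of the 10 above the floor on both arrays only 2 and 1 were, with a median log2 ratio of 0.21. Over all genes the shares were 16% and 11.3% of those measured, and 11.7% and 10.6% of those above the floor on both arrays. Among the 9 were 4 plasma proteins made by hepatocytes (Vtn, Fga, Fgb and Fgg), grouped here after their values were seen, and Fgb is also in the hepatocyte list and Cdh1 in the epithelial one. Without those 4, of 14 measured ligands 5 were toward the old array and 1 toward the young; hepatocyte markers were on the old side in 8 of 8 cases, and their part was not tested. Icam1, the counter-receptor of the beta 2 integrins, had 6948 on the old array and 476 on the young, 14.6-fold. Postn, which encodes periostin, a ligand of alpha V integrins, had 1265 on the old array and a young value under the floor, at least 17.2-fold.

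Of 10 membrane partners, 3 were on the old side and 1 on the young, with a median log2 ratio of 0.73. All were above the floor on both arrays, where 11.7% of all genes were on the old side and 10.6% on the young. Sdc1, a syndecan that works with alpha V integrins, had 383 on the old array and 2114 on the young, 5.52-fold. Slc3a2, the CD98 heavy chain that binds beta chain tails, had 6392 and 1623, 3.94-fold higher on the old array. Cd47, the integrin-associated protein, had 18562 and 6750, 2.75-fold, and the tetraspanin gene Cd81 18081 and 8704, 2.08-fold.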
